A study of Mus musculus with 9 samples.

Results

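Respiratory complex I, the NADH:ubiquinone oxidoreductase of the inner mitochondrial membrane, was followed here through the 46 measured genes whose symbol begins with Nduf, of 19505 genes named on the arrays. They were taken by symbol from the annotation of the array platform, with 1 probe set read per gene, and all 46 were found in the RefSeq gene table of GRCm38.p6. They lie on 17 chromosomes, with at most 6 on any 1 of them. By role they comprise 6 core subunits, 30 accessory subunits, 8 assembly factors and 2 genes that carry the name without belonging to the complex.

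Complex I takes electrons from NADH, passes them along a flavin and a chain of iron-sulphur clusters to ubiquinone, and uses the energy released to pump protons out of the matrix. Its matrix arm holds an electron input (N) module and a quinone-binding (Q) module, while the membrane arm holds the proton pumps. Mitochondrial DNA encodes the core of the membrane arm, and the nuclear genes described here supply the core of the matrix arm and all accessory subunits. In skeletal muscle the complex feeds the respiratory chain that makes ATP for contraction, and matrix calcium is known to activate dehydrogenases that supply its NADH.

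The series examined MCU, the pore-forming subunit of the mitochondrial calcium uniporter, and MCUb, its paralogue in the same channel. Whole tibialis anterior, a fast muscle of the lower leg, was taken from mice of strain C57/BL6 at 2 months of age and profiled on 9 Clariom S microarrays, 3 for each genotype. Control mice were MCU+/+/MCUb+/+, MCU knockout mice MCU-/-/MCUb+/+ and MCUb knockout mice MCU+/+/MCUb-/-. How the alleles were made, whether deletion was confined to muscle, and the sex and litter of the mice are not given in the sources used here. The labels do not tell whether each array of a genotype stands for another mouse, so the p-values cover only the variation among these arrays, which could include technical variation.

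All 8 muscle fibre markers checked, among them Acta1 and Ckm, lay above background on every array, as the tissue label requires. Mcu stood at 10.38, 10.96 and 10.46 (log2) on the control arrays and at 6.80, 6.98 and 7.06 on the MCU knockout arrays, a difference of -3.65 (SE 0.20). Control replicate 3 stood apart, at -70.8 on the first principal component with the other 8 arrays between -20.3 and 21.9. It enters both comparisons with control, so these share their controls and are not independent of each other. Y-linked genes were high on MCU knockout replicates 2 and 3 and MCUb knockout replicate 1 only, with means of 7.24 to 7.80 against 3.01 to 3.89 elsewhere. Each knockout thus mixed high and low arrays, and no control array was high. Read as sex, which the labels do not give, this would put males among the knockouts only and leave sex and genotype out of balance.

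No complex I gene passed the test in any comparison, and the genes as a group lay close to their control levels in both knockouts. The largest difference was that of Ndufa3, a small accessory subunit of the membrane arm, which was 1.05 lower on the log2 scale in MCU knockout than in control muscle (SE 0.19, limma adjusted p = 0.0831) and 0.13 below control in MCUb knockout muscle. In the MCU knockout 20 of the 46 genes had a mean above that of control and 26 a mean below it; the log2 differences ran from -1.05 to 0.61 around a median of -0.05. Over all 22206 probe sets tested the median was -0.02. The MCUb knockout gave the same split, 20 above and 26 below, with a median of -0.07, a range of -0.46 to 0.67 and a median over all probe sets of -0.03. Set against each other, the knockouts had a median MCU minus MCUb difference of -0.02 and a range of -0.93 to 0.41. In bulk muscle, fewer cells of a type and less RNA per cell cannot be told apart.

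The threshold was an adjusted p of 0.05 (limma, Benjamini-Hochberg over all probe sets), which 0.14% of probe sets passed in the MCU knockout, 0.0225% in the MCUb knockout and 0.158% between the knockouts. At an unadjusted p under 0.05, 0 of the 46 genes were higher and 2 lower in the MCU knockout (Ndufa3 and Ndufa7), where 4.76% of all probe sets were higher and 5.35% lower. In the MCUb knockout 2 were higher (Ndufab1 and Ndufs5) and 0 lower, against 3.9% and 4.21% of probe sets. Between the knockouts 0 were higher and 2 lower in the MCU knockout (Ndufa3 and Ndufaf2), against 2.68% and 3.02%. The shares of the members are close to these backgrounds.

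Some genes had groups that did not overlap, meaning that all 3 values of one genotype lay beyond all 3 of the other. In the MCU knockout 3 genes lay wholly above control (Ndufa10, Ndufb9 and Ndufaf5) and 6 wholly below (Ndufa3, Ndufa7, Ndufa12, Ndufa13, Ndufv3 and Ndufaf3), against 6.08% and 7.33% of all probe sets. In the MCUb knockout 5 lay wholly above (Ndufa5, Ndufs5, Ndufb6, Ndufb9 and Ndufaf6) and 6 wholly below (Ndufs1, Ndufa7, Ndufv3, Ndufb7, Ndufb8 and Ndufaf3), against 5.73% and 7.02%. Between the knockouts 4 lay wholly above in the MCU knockout (Ndufa4, Ndufa8, Ndufb7 and Ndufaf5) and 3 wholly below (Ndufa3, Ndufa5 and Ndufs5), against 6.59% and 6.19%. Over the 8684 probe sets above background on all 9 arrays, as nearly all members are, the shares were 6.44% and 9.48%, 7.07% and 7.35%, and 6.14% and 8.83% in the same order. Whether the members differ from these shares was not tested. With control replicate 3 left out, the counts became 4 and 6 in the MCU knockout and 5 and 7 in the MCUb knockout, with backgrounds of 11% and 11.6%, and of 10.3% and 11.4%.

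**Figure D1:**
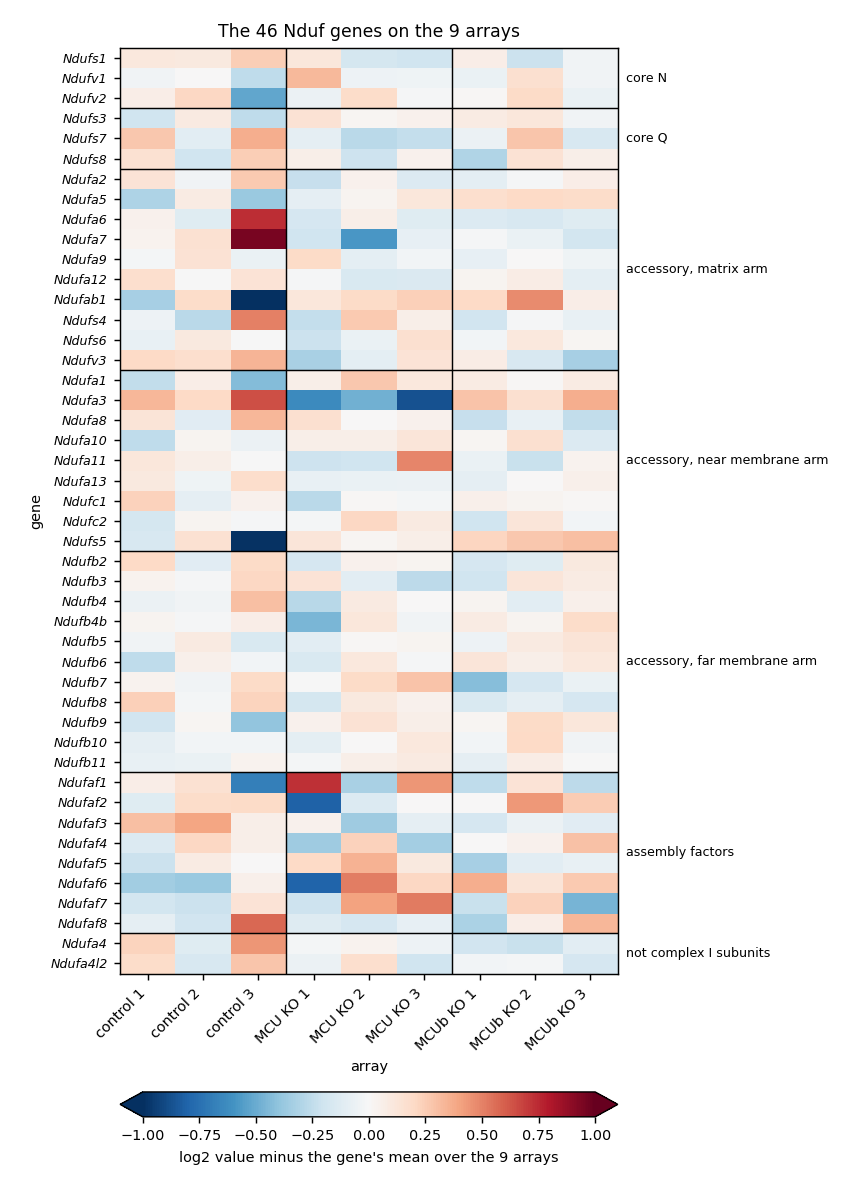
Each row is 1 of the 46 Nduf genes, grouped by role, and each column 1 of the 9 arrays; colour gives the log2 value minus the mean of that gene over the 9 arrays, and colours saturate at 1 in either direction. Ndufa3 is blue on the 3 MCU knockout arrays alone, while control replicate 3 carries the strongest colours of many other rows.

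How closely the levels matched can be read from the 95% intervals of the differences, unadjusted for the number of genes. Of the 45 genes above background, 41 had an interval wholly within a 2-fold change in either direction in the MCU knockout, 41 in the MCUb knockout and 42 between the knockouts. Within a 1.5-fold change lay 23, 23 and 29 intervals. The exceptions to the 2-fold limit in the MCU knockout were Ndufa3, Ndufa7, Ndufab1 and Ndufaf1, and in the MCUb knockout Ndufa7, Ndufab1, Ndufs5 and Ndufaf6. An interval reached 0.40 to either side of its estimate at the median, and 0.35 to 0.66 over the genes. At the median SE of the members, 0.18, a difference had to reach 1.13, 1.38 and 1.11 in the 3 comparisons to pass.

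**Figure D2:**
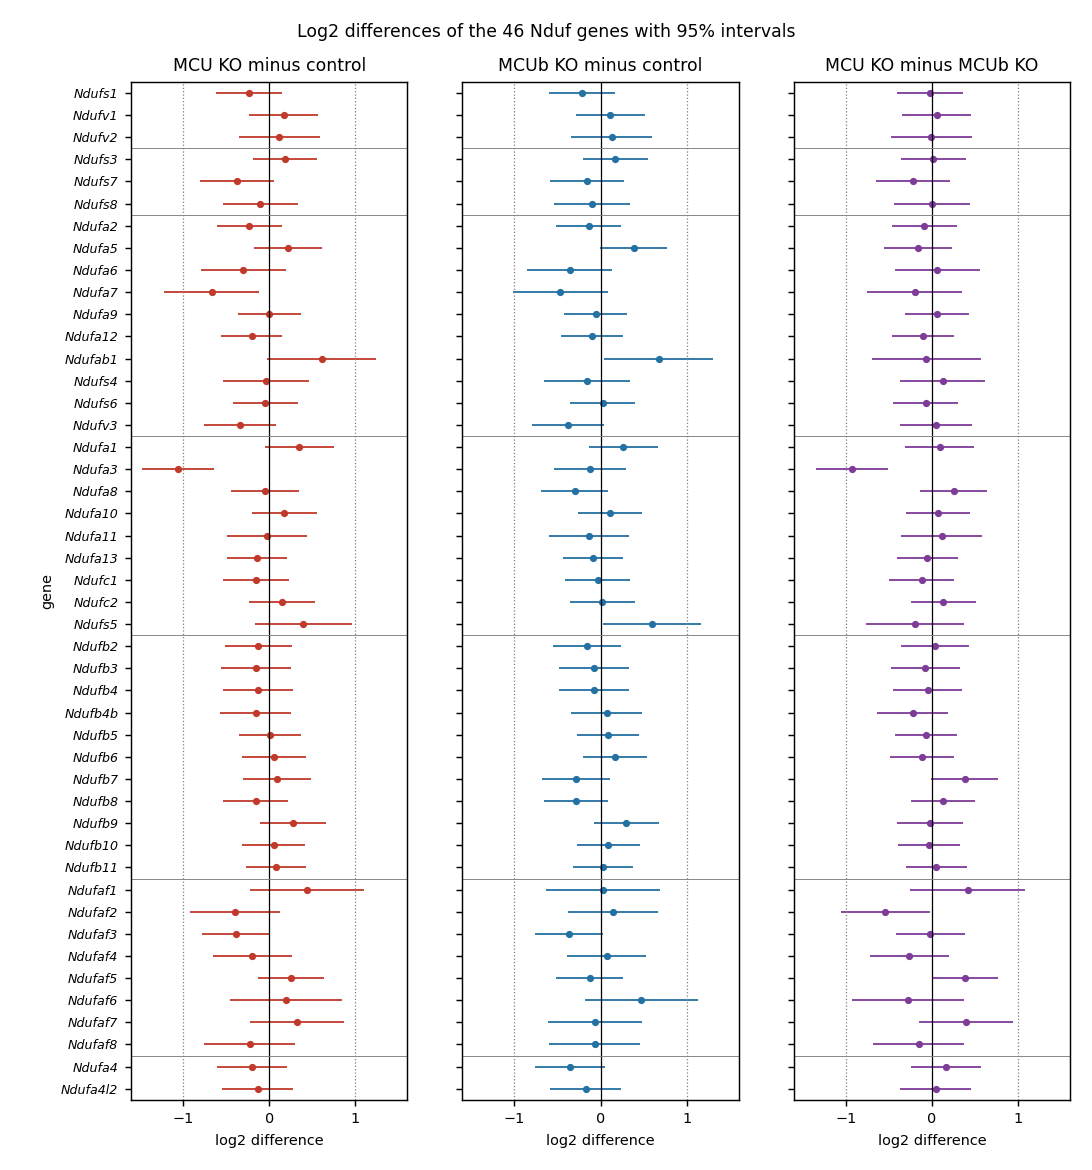
Points give the log2 difference of each of the 46 genes in the 3 comparisons and lines its unadjusted 95% interval, with dotted lines at a 2-fold change in either direction. Ndufa3 is the only gene whose estimate lies beyond a dotted line, at -1.05 for MCU knockout minus control.

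The core subunits of the N module carry out the entry of electrons: Ndufv1 holds the NADH site and the flavin, and Ndufv2 and Ndufs1 hold iron-sulphur clusters. Ndufv1 differed from control by 0.17 in the MCU knockout and 0.11 in the MCUb knockout, and Ndufv2 by 0.12 and 0.13 (SE 0.18 and 0.21). Ndufs1 read 13.00, 12.99 and 13.15 in control, 13.01, 12.72 and 12.70 in MCU knockout and 12.96, 12.68 and 12.86 in MCUb knockout muscle. Its MCUb knockout values all lay under the controls, by 0.21 on average (SE 0.17, limma adjusted p = 0.755), and 1 of the MCU knockout values overlapped them. Ndufv2 changed sign in both comparisons when control replicate 3 was left out, to -0.10 and -0.09.

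In the Q module, Ndufs7 and Ndufs8 carry the clusters that hand electrons to ubiquinone, and Ndufs3 helps to form the arm around them. Ndufs7 was 12.77, 12.40 and 12.86 in control, 12.41, 12.23 and 12.26 in MCU knockout and 12.44, 12.78 and 12.34 in MCUb knockout muscle. The lowest control array just fell below the highest MCU knockout array, and the difference of -0.37 (SE 0.20) had a limma adjusted p of 0.549. Ndufs3 differed by 0.19 and 0.17 and Ndufs8 by -0.10 and -0.10 in the MCU and MCUb knockout. The medians of the module were -0.10 in both knockouts, over 3 genes each, and those of the N module 0.12 and 0.11.

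The 10 accessory subunits of the matrix arm surround this core. Their median was -0.12 in each knockout, with 7 of 10 below control in each. The range ran from -0.67 to 0.61 in the MCU knockout and from -0.46 to 0.67 in the MCUb knockout and its ends were Ndufa7 and Ndufab1 in both.

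Ndufa7, a small subunit at the N module, was 9.54, 9.65 and 10.45 in control, 9.30, 8.92 and 9.42 in MCU knockout and 9.49, 9.43 and 9.32 in MCUb knockout muscle. All 6 knockout values lay under all 3 controls. The differences were -0.67 and -0.46 (SE 0.25, limma adjusted p = 0.420 and 0.639). Control replicate 3 was the highest array, and without it they became -0.38 and -0.18.

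Ndufab1 is the mitochondrial acyl carrier protein, which sits in both arms of the complex and also serves fatty acid and lipoate synthesis. It read 14.79, 15.31 and 13.99 in control, 15.24, 15.31 and 15.36 in MCU knockout and 15.32, 15.60 and 15.19 in MCUb knockout muscle. The knockout arrays were close together, and the controls were spread over a wider span that overlapped them. The differences were 0.61 and 0.67 (SE 0.29, limma adjusted p = 0.506 and 0.590), and without control replicate 3, the lowest array, 0.26 and 0.32.

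Ndufa5 was 18.31, 18.70 and 18.25 in control, 18.53, 18.65 and 18.73 in MCU knockout and 18.79, 18.82 and 18.80 in MCUb knockout muscle, so that the MCUb knockout arrays lay above all others. Its differences were 0.22 and 0.38 (SE 0.18, limma adjusted p = 0.704 and 0.619). Ndufv3, an accessory subunit of the N module, was 13.31, 13.28 and 13.46 in control, 12.79, 13.02 and 13.25 in MCU knockout and 13.19, 12.95 and 12.78 in MCUb knockout muscle. Every knockout array lay under every control, with differences of -0.33 and -0.38 (SE 0.19, limma adjusted p = 0.581 and 0.623).

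The 9 accessory subunits of the membrane arm near its joint with the matrix arm had medians of -0.02 and -0.03. Ndufa3 stood away from them. It is a short subunit with a single membrane-spanning helix, and its probe set read 15.07, 14.93 and 15.38 in control, 14.10, 14.25 and 13.86 in MCU knockout and 15.01, 14.89 and 15.09 in MCUb knockout muscle. The MCU knockout values lay well under all 6 others, and the MCUb knockout values lay inside or just under the control range. Control exceeded MCU knockout by a fold size of 2.08.

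The MCU knockout minus control difference of Ndufa3, -1.05 (95% interval -1.47 to -0.64), did not pass after adjustment over all probe sets (limma adjusted p = 0.0831), nor did the difference between the knockouts of -0.93 (SE 0.19, limma adjusted p = 0.135). An exact permutation test over the 20 splits of 3 against 3 gave a two-sided p of 0.1, the smallest it allows. Any gene with groups that do not overlap gets this value. Ndufa3 was picked for its large difference, so the test adds nothing to that. In the 18 other settings tried, several of which could not move the estimate, the difference from control ran from -1.15 to -0.93. It passed in 2 of them, with an intensity trend and robust prior (limma adjusted p = 0.0119) and without control replicate 2 (limma adjusted p = 0.0496), and the highest adjusted p was 0.347. Without control replicate 3 it was -0.93 (limma adjusted p = 0.189). The difference between the knockouts passed with the intensity trend and robust prior (limma adjusted p = 0.0297) and ran from -1.02 to -0.83.

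Markers of slow and IIa fibres went both ways on the MCU knockout arrays: 5 of 9 had a mean above control and 4 below, with a median difference of 0.19, and none passed. Myh2, Myl2, Myl3 and Casq2 lay wholly under control, with differences of -2.09, -2.004, -0.48 and -2.32, where 7.33% of all probe sets did so. Tnnt1 lay wholly above it (0.60), where 6.08% did so, and Atp2a2, Tnni1, Tnnc1 and Myh7 differed by 0.59, 0.63, 0.40 and 0.19 with overlapping groups. These genes are the slow and IIa isoforms of contractile and calcium-handling proteins. The summed level over the 9 genes, which follows the brightest of them, was 16.32 to 16.97 there, 17.51 to 17.67 in control and 16.40 to 18.12 in MCUb knockout muscle (log2 of the sum). Each of the 9 was measured above background on at least 2 arrays. On MCUb knockout replicate 1, Casq2 (9.89) and Myh2 (14.27) were also under every control, with Ndufa3 at 15.01. On MCU knockout replicate 1, where Y-linked genes were low as in the controls, Ndufa3 was 14.10. When the level of Y-linked genes entered the fit as a covariate, its difference was -1.08 (limma adjusted p = 0.347). No control array was high in Y-linked genes, and the parts of sex and of fibre type in the difference were not tested.

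Ndufa3 lies on chromosome 7 between Oscar and Tfpt in the RefSeq order of the measured genes. Of the 3 nearest measured genes on either side, Cacng6 differed by -0.60 in the MCU knockout (SE 0.21, limma adjusted p = 0.383). Tfpt differed there by -0.43 (SE 0.21, limma adjusted p = 0.517) and Prpf31 by 0.61 (SE 0.28, limma adjusted p = 0.496). In the MCUb knockout Cacng6, Tfpt and Prpf31 differed by -0.00, -0.63 and 0.54 (lowest limma adjusted p = 0.534). Cacng6 encodes a calcium channel gamma subunit of skeletal muscle and Prpf31 a splicing factor. Tarm1 and Mboat7 differed by 0.05 and 0.08 in the MCU knockout, and Oscar was not above background on any array. Because Ndufa3 had the largest difference, the 100 bases before its transcription start are shown (RefSeq, GRCm38.p6, chr7:3617273-3617372, plus strand).
Ndufa3 upstream: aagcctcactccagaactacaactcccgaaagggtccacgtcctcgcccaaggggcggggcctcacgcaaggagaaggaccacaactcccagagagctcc

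Ndufs5, which lies on the side of the membrane arm that faces the intermembrane space, read 16.88, 17.19 and 16.05 in control, 17.16, 17.06 and 17.10 in MCU knockout and 17.26, 17.31 and 17.34 in MCUb knockout muscle. The MCUb knockout arrays lay above all 6 others. The differences from control were 0.40 and 0.60 (SE 0.26, limma adjusted p = 0.622 and 0.593), and 0.07 and 0.27 without control replicate 3, the lowest array.

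Ndufa1, a small subunit needed for assembly, differed by 0.35 and 0.26 (SE 0.18), and Ndufa8, a subunit of the intermembrane space side, by -0.05 and -0.30 (SE 0.18). Ndufa8 was 17.16, 17.00 and 17.04 in MCU knockout and 16.77, 16.92 and 16.75 in MCUb knockout muscle, which did not overlap. The difference between the knockouts was 0.25 (limma adjusted p = 0.9998).

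**Figure D3:**
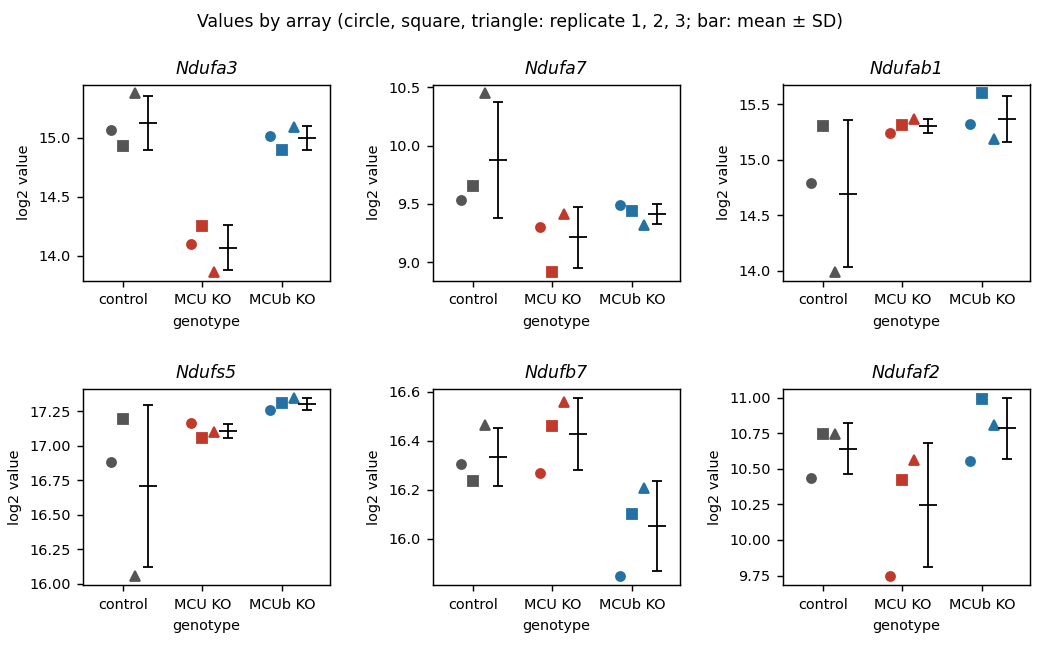
Log2 values of 6 genes on each array, by genotype, with a separate scale for each gene; symbols mark replicates 1, 2 and 3, and bars the mean and SD of 3 arrays. Ndufa3 separates the MCU knockout from the other genotypes, and control replicate 3 is the highest array for Ndufa7 and the lowest for Ndufab1 and Ndufs5.

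The 11 Ndufb genes belong to the far part of the membrane arm, where the last proton pumps sit. They varied least, with a median range over the 9 arrays of 0.41 against 0.59 for all 45 members above background, and medians of 0.01 and 0.02 against control. Ndufb9 was 16.76, 16.97 and 16.55 in control, 17.00, 17.10 and 17.01 in MCU knockout and 16.97, 17.15 and 17.06 in MCUb knockout muscle. Its differences were 0.28 and 0.30 (SE 0.17, limma adjusted p = 0.612 and 0.659), and no knockout array lay below a control. MCUb knockout replicate 1 (16.9684) was only just above control replicate 2 (16.9682).

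Ndufb7, on the intermembrane space side, was 16.30, 16.24 and 16.46 in control, 16.27, 16.46 and 16.56 in MCU knockout and 15.85, 16.10 and 16.21 in MCUb knockout muscle. The MCUb knockout arrays lay under all others, by 0.28 against control (SE 0.18, limma adjusted p = 0.687) and by 0.38 against the MCU knockout (limma adjusted p = 0.887). Ndufb8 differed from control by -0.16 and -0.28 (SE 0.17). Ndufb4b is a close copy of Ndufb4, and whether their probe sets tell the copies apart was not tested; it differed by -0.15 and 0.07 (SE 0.19).

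The 8 Ndufaf genes encode assembly factors, which help to build the complex and are not part of it. They varied most, with a median range over the arrays of 0.94, and their medians against control were -0.00 and -0.02. They were also dimmer than the Ndufb genes. Control means ran from 7.84 (Ndufaf3) to 12.35 (Ndufaf4), against 14.02 (Ndufb8) to 17.99 (Ndufb4). Whether the spread goes with role or with signal level was not tested. In the median over the Ndufaf genes, replicate 1 was the lowest array of each genotype, at -0.13, -0.17 and -0.20 against 0.05 to 0.12 on the other 6 arrays.

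Ndufaf3, a factor of the Q module, was 7.89, 7.98 and 7.64 in control, 7.63, 7.23 and 7.50 in MCU knockout and 7.42, 7.53 and 7.47 in MCUb knockout muscle. All 6 knockout values lay under the controls, MCU knockout replicate 1 only just. The differences were -0.39 and -0.37 (SE 0.18, limma adjusted p = 0.505 and 0.620), and -0.48 and -0.46 without control replicate 3. Its partner Ndufaf4 differed by -0.20 and 0.07 (SE 0.21).

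Ndufaf2, a chaperone of the late matrix arm and a paralogue of Ndufa12, was 10.43, 10.74 and 10.75 in control, 9.75, 10.42 and 10.56 in MCU knockout and 10.56, 10.99 and 10.81 in MCUb knockout muscle. The low value of MCU knockout replicate 1 set much of the difference between the knockouts, -0.54 (SE 0.24, limma adjusted p = 0.849), which was -0.29 without that array. Ndufaf5, which hydroxylates Ndufs7, was 10.41, 10.55 and 10.30 in MCU knockout and 9.88, 10.10 and 10.13 in MCUb knockout muscle. These groups did not overlap and differed by 0.38 (SE 0.17, limma adjusted p = 0.877).

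Ndufaf1, which acts early in the membrane arm, differed from control by 0.44 and 0.03 (SE 0.30), and Ndufaf7, a methyltransferase, by 0.32 and -0.07 (SE 0.25). Ndufaf6 was 9.58, 9.56 and 9.98 in control and 10.29, 10.06 and 10.19 in MCUb knockout muscle, a difference of 0.47 (SE 0.30, limma adjusted p = 0.687). In the MCU knockout it was spread from 9.13 on replicate 1 to 10.44 on replicate 2 and differed by 0.19.

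Ndufa4 is now counted as a subunit of complex IV, and Ndufa4l2 is its paralogue induced by low oxygen. Ndufa4 was 17.66, 17.31 and 17.88 in control, 17.41, 17.47 and 17.39 in MCU knockout and 17.24, 17.21 and 17.33 in MCUb knockout muscle. Its differences were -0.20 and -0.35 (SE 0.18, limma adjusted p = 0.741 and 0.632), and the lowest control lay within the span of the MCUb knockout. Ndufa4l2 was not above background on any of the 9 arrays, at 3.46 to 3.94. The 19 members not described by name ran from -0.30 to 0.18 in the MCU knockout, from -0.36 to 0.17 in the MCUb knockout and from -0.15 to 0.13 between the knockouts, with a lowest limma adjusted p of 0.678, 0.686 and 0.9998.

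Control replicate 3 was the highest or the lowest of the 9 arrays for 56.5% of the 46 genes, and for 40.5% of all probe sets. It was the highest for 16 of them, Ndufa6, Ndufa7 and Ndufs4 included, and the lowest for 10, Ndufab1, Ndufs5 and Ndufv2 included. MCU knockout replicate 1 was the lowest array for 11 genes, of which 3 were assembly factors and 4 Ndufb genes. It was the highest or the lowest array for 32.6% of the 46 genes, and for 21.3% of all probe sets. Without control replicate 3 the median of the 46 genes was -0.04 in the MCU knockout and -0.00 in the MCUb knockout, and 0 genes passed in any comparison.

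Factors that act on many respiratory chain genes bind short motifs near their starts, so the promoters of the members were searched for such letters. RefSeq windows of 300 bases, from 250 before to 50 after the transcription start, were matched for 41 of the 46 genes. The NRF1 letters GCATGCGC was in 5 of them (12.2%), against 3.05% of the 27025 genes with a window. The ETS letters CCGGAAG were in 6 (14.6%, against 9.93%), the ERR letters AAGGTCA in 3 (7.32%, against 5.38%) and the YY1 letters AAGATGGC in 8 (19.5%, against 3.19%), all searched on both strands, and 20 windows held none. The NRF1 letters contain a palindrome, and matches on the 2 strands overlap in Ndufa11, Ndufaf4 and Ndufaf5. A match is a description of letters and not evidence of binding. The background took every gene with a window and was not restricted to genes like the members. Whether the shares differ was not tested.

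The 8 matches to the YY1 letters are shown because they share strand and side of the start. All lay on the strand of the gene and began between base 11 and base 39 of the transcript, counting from 1 at its start, and the letters contain an ATG. The letters are in capitals, with up to 8 bases on either side, as RefSeq gives them for GRCm38.p6. The window ends after base 50, which shortens the last 2.
Ndufc1 (chr3:51408918-51408941, minus strand): tgcggaacAAGATGGCgccgtccg
Ndufa9 (chr6:126849100-126849123, minus strand): tgtgggagAAGATGGCggccgccg
Ndufa3 (chr7:3617387-3617410, plus strand): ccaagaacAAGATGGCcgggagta
Ndufs7 (chr10:80249465-80249488, plus strand): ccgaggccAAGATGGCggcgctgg
Ndufaf8 (chr11:120098936-120098959, plus strand): cagggcccAAGATGGCggcgccct
Ndufs6 (chr13:73328434-73328457, minus strand): tcaccggcAAGATGGCggcggtgc
Ndufs4 (chr13:114388045-114388067, minus strand): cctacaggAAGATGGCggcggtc
Ndufb8 (chr19:44555393-44555412, minus strand): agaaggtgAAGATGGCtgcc

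The 5 genes with the NRF1 letters had their matches on both sides of the start, and 1 is shown for each of 3 genes for contrast with the YY1 letters, which all follow the start. Counting bases before the start as negative, that of Ndufa6 began at base -83, that of Ndufa8 at base -8 and that of Ndufaf5 at base 19.
Ndufa6 (chr15:82354359-82354382, minus strand): gcggtagaGCATGCGCattgcaga
Ndufa8 (chr2:36049331-36049354, minus strand): ctggagacGCATGCGCagatggta
Ndufaf5 (chr2:140170656-140170679, plus strand): ccgttggcGCATGCGCctaataga

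Of the 8 genes with the YY1 letters, 7 had a mean below control in the MCU knockout, from -1.05 for Ndufa3 to -0.03 for Ndufs4, with Ndufa9 at 0.00. In the MCUb knockout 7 were below control. The medians of the 8 were -0.16 and -0.10. Of the 33 genes with a window but without the letters, 16 were below control in each knockout, with medians of 0.01 and 0.02. Without control replicate 3, 6 and 4 of the 8 were below control in the MCU and MCUb knockout, and 17 and 16 of the 33. This grouping was made with the differences known and was not tested, and both knockouts were set against the same controls. Of the factors themselves, Yy1 differed from control by 0.38 and 0.66 (SE 0.41), Nrf1 by -0.77 and -0.44 (SE 0.41) and Gabpa, an ETS factor, by -0.35 and -0.02 (SE 0.32) in the MCU and MCUb knockout. Control replicate 3 was far from the other controls in Yy1, at 8.45 against 10.08 and 10.33, and in Nrf1, at 8.63 against 10.35 and 10.18.

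None of the 7 measured regulators of respiratory chain genes passed in either comparison with control. Ppargc1a, the coactivator PGC-1 alpha, differed by 0.11 and 0.21 (SE 0.19), and its relative Ppargc1b by -0.55 and -0.58 (SE 0.19, limma adjusted p = 0.388 and 0.534). Esrrg, a nuclear receptor that works with them, was 7.10, 7.48 and 6.61 in control and 6.71, 5.92 and 5.56 in MCU knockout muscle, where 1 array was below background. Its differences were -0.997 and -0.54 (SE 0.30, limma adjusted p = 0.345 and 0.651). Tfam, which packages mitochondrial DNA and starts its transcription, differed by 0.80 and 0.57 (SE 0.33), with control replicate 3 at 8.01 and the other controls at 9.14 and 9.52.

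Of the 12 other assembly factors listed, 11 were measured and 0 passed. Relative to control, 8 were higher and 3 lower in the MCU knockout (median 0.16), and 6 were higher and 5 lower in the MCUb knockout (median 0.08). Timmdc1, a factor of the membrane arm, was 8.66, 8.41 and 8.21 in control, 9.38, 9.17 and 9.24 in MCU knockout and 8.74, 8.27 and 9.11 in MCUb knockout muscle. The MCU knockout arrays lay above all others, and the differences from control were 0.84 and 0.28 (SE 0.23, limma adjusted p = 0.306 and 0.755). Foxred1, an oxidoreductase-like factor, was not above background in any control and read 6.27, 5.94 and 6.42 in MCUb knockout muscle (limma adjusted p = 0.515). Lyrm2, a factor of the N module, differed by 0.16 and 0.57 (SE 0.24, limma adjusted p = 0.849 and 0.580).

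The other respiratory complexes gave medians of a like size. In the MCU and MCUb knockout these were -0.11 and -0.15 for the 4 genes of complex II, -0.02 and -0.03 for 9 of complex III, -0.10 and -0.05 for 18 of complex IV and -0.01 and -0.02 for 17 of complex V. None of these 48 genes passed in either comparison with control. The array medians of the 36 complex I subunits lay between -0.08, on MCU knockout replicate 1, and 0.07, on MCUb knockout replicate 2, and the genotypes overlapped. For complex IV the median of every control array (0.05 to 0.10) lay above that of every knockout array (-0.08 to 0.04). The gap was narrow, with control replicate 2 at 0.0453 and MCU knockout replicate 2 at 0.0404, and 15 of the 18 genes were above background on all arrays. The summed level of the 18 genes overlapped, at 21.42 to 21.45 in control, 21.39 to 21.52 in MCU knockout and 21.39 to 21.47 in MCUb knockout muscle (log2 of the sum).

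**Figure D4:**
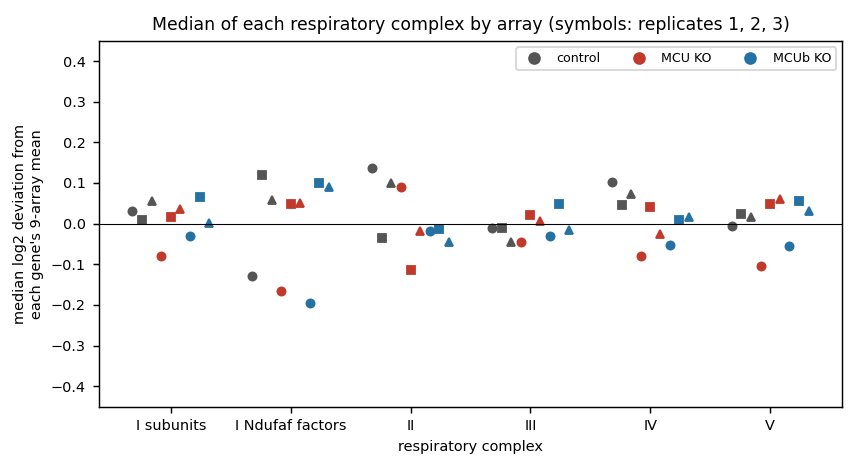
Median over each list of the log2 deviation of its genes from their 9-array means, per array, for the complex I subunits, the 8 Ndufaf assembly factors and complexes II to V; colours give the genotype and symbols the replicate. The genotypes overlap in every list but complex IV, where the 3 controls lie above the 6 knockout arrays, control replicate 2 only just. Replicate 1 is the lowest of each genotype for the Ndufaf factors.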

How the data were processed

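The authors deposited 1 log2 value per probe set and array. Per the submitters' processing notes they used Affymetrix Expression Console. Its version, summarisation, normalization and the base of the logarithm are not given in the sources used here, so reading the values as log2 is an assumption that every fold and difference rests on. Per the labels' protocols, frozen muscle was extracted with Trizol and labelled with a 3' IVT Pico kit. Array data have no read depth, and the 3 arrays per group limit precision.

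Of 28846 features, 6640 control features were left out. The remaining 22206 probe sets entered 1 fit of 3 group means over 9 arrays, made by limma (version 3.58.1, under R 4.3.3) with lmFit and eBayes, after a check on simulated data; tests were two-sided, with 6 residual and 5.06 prior degrees of freedom. Above background means over the 95th percentile of the 23 background sets of the same array, and 45 of the 46 genes were so on all 9 arrays. For a gene with several probe sets the one with the highest mean was read. Log2 differences carry the fitted SE.

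The members, gene lists and naming rule were chosen with earlier results of these data known. Named are the core subunits, in each comparison the genes of smallest p in each direction (6 and 6 against control, 4 and 4 between knockouts) and the extremes of each role group, plus all regulators and the 2 other assembly factors of smallest p. Complexes II to V and cell markers are given by counts and medians, except where a result turned on a gene. Genes listed only as not overlapping, as array extremes, as motif holders or as neighbours of Ndufa3 fall outside the rule and were chosen after their values were seen. Mcub, Esrra and mitochondrially encoded subunits were not analysed here. Alternatives were quantile normalization, centring, removal of dim probe sets, array weights, a trended robust prior, fits of 2 groups, a replicate block, a Y-linked covariate, another choice of probe set and leaving out each array. The 46 members have 46 probe sets, so another choice of probe set changed nothing for them. The prior, the fits of 2 groups, the block and leaving out arrays of a genotype not compared could not move a difference either.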

Additional observations from a re-analysis of the deposited data

How the results depend on the processing

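The count of complex I genes past the threshold was 0 in each comparison and stayed 0 except in the MCU knockout minus control comparison with an intensity trend and robust prior (1) and without single arrays (0 to 1, the 1 without control replicate 2), and between the knockouts with the trend and robust prior (1). The gene was Ndufa3 each time. The median difference over the members was -0.0133 in the MCUb knockout with the Y-linked covariate, against -0.068. Leaving out single arrays moved it between -0.139 and -0.00533 in the MCU knockout and between -0.115 and -0.00339 in the MCUb knockout. The cause of these shifts was not tested. Replicate numbers did not pair the arrays: same-numbered arrays correlated at -0.121 to 0.0882 in their deviations from the group means. With the number as a replicate block, 0, 0 and 0 genes passed and the medians were -0.0466, -0.068 and -0.0214. Every genotype holds each number, so the block could not move any difference, only its error. Of 81 differences of named genes, 58 kept their sign in all settings that gave a value and 23 did not, none of which passed in any setting. Several settings, such as the prior, the block and the choice of probe set, could not change a sign. Ndufa4l2 gave no value under the filter on dim probe sets. Counts of members at an unadjusted p under 0.05, and of groups not overlapping without control replicate 3 (a check chosen after seeing the data), are small and rest on few arrays.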
